A study of Mus musculus with 10 samples.

Results

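The rows described are the microRNA genes with the higher signals on 10 liver arrays, 147 of the 511 rows that carry 1 microRNA symbol, in a table of 41345 rows. They were chosen by 2 criteria: a platform annotation of exactly 1 gene symbol starting with Mir and a digit or with Mirlet7, and a mean log2 level of 6.0 or more over all 10 arrays. The 147 rows, each a probe set, stand for 146 genes, since Mir191 has 2 rows, and 1 of them, Mir99ahg, names a host transcript rather than a hairpin. A further 136 rows name a microRNA together with another gene and are not members. The livers came from male 129/S6 (taconic) mice of 2 months, fasted overnight for about 16 hours and killed in the morning. There were 5 wild-type samples and 5 samples with the genotype macroH2A1 macroH2A2 double knockout, with no promoter, Cre driver or clone named in the labels. MacroH2A proteins are histone H2A variants with a large extra domain, and the comparison asks how liver RNA differs without both of them.

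A microRNA gene is transcribed as a longer primary RNA, often within the RNA of a host gene. Drosha and Dgcr8 cut out a hairpin, Xpo5 carries it out of the nucleus, Dicer1 cuts it to a short duplex, and an Argonaute protein holds the mature strand, whose seed near the 5′ end pairs with target messages. Liver is known for Mir122, the abundant microRNA of hepatocytes, and for the neighbouring Mir192 and Mir194-2. Whole-transcript labelling, used here on total RNA, is not designed to capture mature microRNAs, so a row's level refers to whichever labelled RNA its probes bound, precursor or host RNA included.

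Mir680-1 was picked out for description with its rise already known. The hairpins of the 3 annotated copies of Mir680 are therefore shown first, 5′ to 3′, with the mature miR-680 in capitals. RefSeq places them, in GRCm38.p6, at chr6:129691535-129691643 on the plus strand, at chrX:144297790-144297899 on the plus strand and at chr12:35194811-35194897 on the minus strand.
Mir680-1: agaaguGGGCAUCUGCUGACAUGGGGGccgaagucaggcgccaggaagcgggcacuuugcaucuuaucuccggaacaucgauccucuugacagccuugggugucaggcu
Mir680-2: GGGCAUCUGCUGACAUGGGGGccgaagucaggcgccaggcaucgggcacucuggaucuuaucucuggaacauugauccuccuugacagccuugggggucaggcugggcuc
Mir680-3: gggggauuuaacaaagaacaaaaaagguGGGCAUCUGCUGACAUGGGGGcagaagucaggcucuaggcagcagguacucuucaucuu
The mature sequence is the same at the 3 loci. In a local alignment the hairpins of Mir680-1 and Mir680-2 were identical at 96 of 104 aligned positions (92.3%), those of Mir680-1 and Mir680-3 at 53 of 61 (86.9%). The probe positions of each row were not used here, and how far the rows tell the copies apart was not tested.

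A second set of mature sequences shows liver microRNAs and a shared seed, with the seed (bases 2 to 8) in capitals. RefSeq places Mir192 at chr19:6264844-6264932 and Mir194-2 at chr19:6264643-6264728, both on the plus strand of GRCm38.p6. The identical miR-194-5p also comes from Mir194-1 at chr1:185313319-185313385. Mir103-2 lies at chr2:131288052-131288137 on the plus strand and Mir107 at chr19:34820687-34820773 on the minus strand.
miR-192-5p: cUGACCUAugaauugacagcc
miR-194-5p: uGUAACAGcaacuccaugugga
miR-103-3p: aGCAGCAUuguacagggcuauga
miR-107-3p: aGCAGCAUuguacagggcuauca
Mature sequences were found in the RefSeq table for 122 members, with 186 distinct seeds, of which 13 were shared by more than 1 member (23 members in all).

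The chosen level is not a clear line between expressed and silent. Over all 511 microRNA rows the median level was 5.10, and 28.8% reached 6.0, against 67% of all rows with 1 gene symbol. Olfactory receptor genes, typical of nasal epithelium and taken as background, had a 95th percentile of 6.54 over their rows, and 125 of them (11.3%) also reached 6.0. Of the 147 members, 117 lay above that 95th percentile and 30 did not. Just inside the threshold stood Mir693, Mir3067 and Mir3090, with means of 6.06, 6.06 and 6.08. Just outside stood Mir23a at 5.999, Mir200b at 5.996 and Mir326 at 5.982.

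Hairpin base composition, which the rule did not use, is described beside the level, which it did use. Hairpins could be read from RefSeq for 116 members and for 292 microRNA rows under 6.0, and their median GC share was 54.1% and 45.9%. Members ranged from 31.2% to 74.8%, and 30 of the 116 lay under 50%. The share of rows reaching 6.0 was 9.52% (6 of 63) for hairpins under 40% GC and 14.7% (24 of 163) from 40% to under 50%. It was 34.1% (46 of 135) from 50% to under 60%, and 85.1% (40 of 47) at 60% or more. Across these 408 rows Spearman's rho of GC share and level was 0.56 and Pearson's r 0.49, a description with no test across rows hybridised on the same arrays. Within the members rho was 0.05, over levels that the rule had cut at 6.0, which by itself can lower rho. An order of levels between rows is an order of array signals, not of RNA amounts. The 2 rows of Mir191 alone had means of 7.75 and 6.22.

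**Figure D1:**
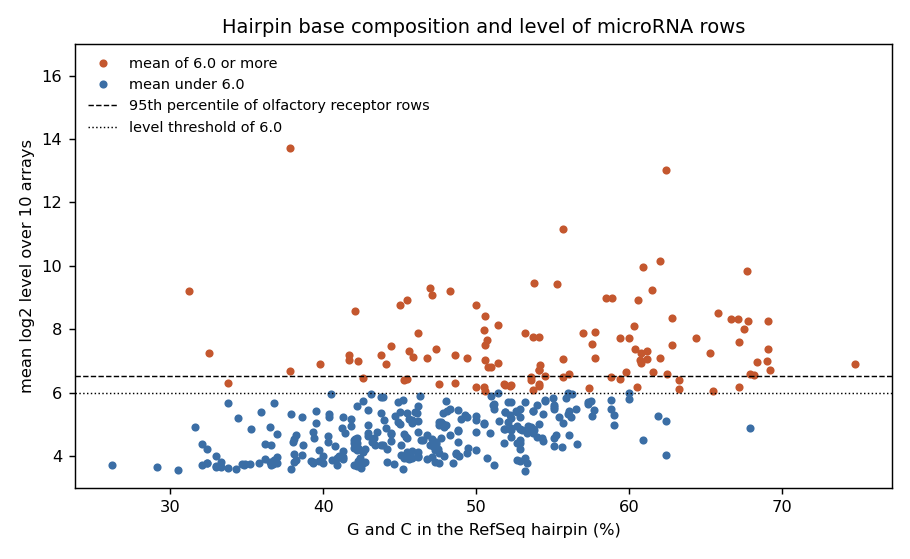
Share of G and C in the RefSeq hairpin (horizontal axis, percent) and mean log2 level over 10 arrays (vertical axis) of 408 microRNA rows, 116 of them members; lines mark the level threshold of 6.0 and the olfactory 95th percentile of 6.54. Rows at 60% GC or more mostly lie above 6.0 (40 of 47), rows under 40% mostly below it (6 of 63 reach it).

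Double knockout and wild-type livers were then compared row by row, with the difference given as double knockout minus wild type on the log2 scale. A row was called at an adjusted p under 0.05 in limma over 25335 rows. Of the 147 members 1 was called, Mir680-1, which was higher in double knockout livers. That is 0.68% of members, beside a background of 0.884% of all rows tested and 1.24% of rows tested with a mean of 6.0 or more. By direction, 1 member was called higher and 0 lower, while 0.332% of all rows were called higher and 0.553% lower. At an unadjusted p under 0.05 in the same limma fit 12 members (8.16%) were higher and 10 (6.8%) lower, against 7.52% and 7.6% of all rows tested. The groups did not overlap for 2 members, both higher in double knockout livers (1.36%), where all rows gave 1.75% higher and 2.15% lower. The shares at an unadjusted p lay close to their background. The shares called or apart rest on 1 and 2 rows, too few to be told from theirs. Of the 364 microRNA rows under 6.0, 0 were called.

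Most members differed little between the groups. The absolute difference was under 0.1 for 100 of 147 rows (68%), against 69.8% of all tested rows at 6.0 or more. It was under 0.2 for 131. In total 65 members had a higher and 82 a lower mean in double knockout livers. The median difference was -0.01, the same as for all tested rows at 6.0 or more, and the median absolute difference was 0.063 against 0.061. The median SD within groups was 0.13 for members and 0.10 for all rows tested.

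**Figure D2:**
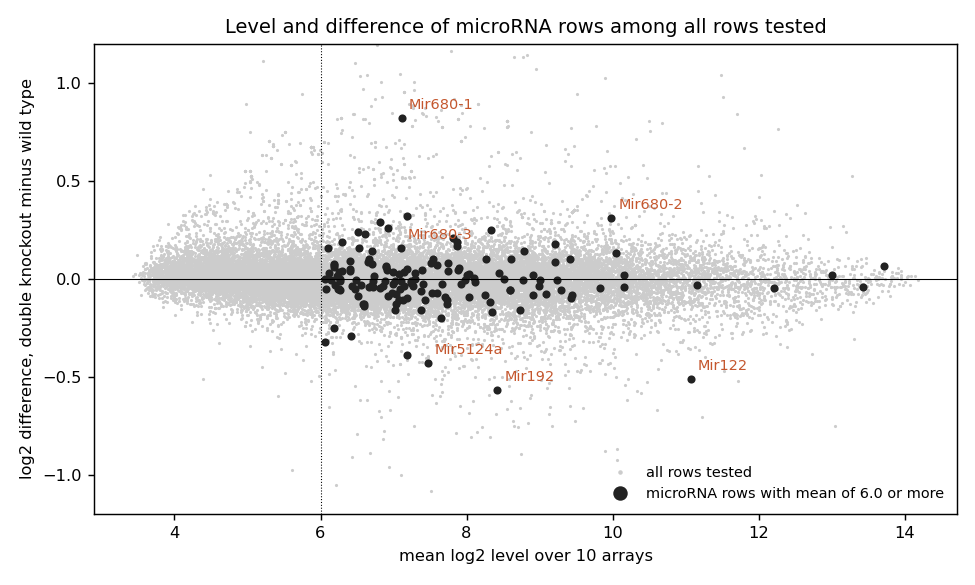
Mean log2 level over 10 arrays (horizontal axis) and log2 difference, double knockout minus wild type (vertical axis), of the 147 members (black) over all 25335 rows tested (grey; 10 grey rows lie beyond 1.2 and are not drawn). Mir680-1 stands at 0.82, Mir192 at -0.57 and Mir122 at -0.51, and 131 members lie within 0.2 of zero.

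The Mir680 copies were read side by side. Mir680-1 was at 6.98, 6.65, 6.51, 6.65 and 6.70 in wild-type replicates 1 to 5 and at 7.51, 7.92, 7.35, 7.49 and 7.33 in double knockout replicates 1 to 5. Every double knockout array lay above every wild-type array. The group means were 6.70 ± 0.17 (SD, n = 5) and 7.52 ± 0.24 (SD, n = 5), which puts double knockout livers 0.82 higher (SE 0.11), or 1.77-fold. This row was picked out with its rise already known, so its values, and its call under any setting, are a description and support nothing. Without the 4 arrays richest in pancreas markers, an alternative chosen after the data were seen, its difference was 0.67 and it was not called, with 6 arrays left.

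Mir680-2 was at 10.03, 9.72, 9.82, 9.75 and 9.80 in wild-type replicates 1 to 5 and at 9.99, 10.10, 10.27, 10.25 and 10.07 in double knockout replicates 1 to 5. The overlap came from wild-type replicate 1, which exceeded double knockout replicate 1. Double knockout livers were 0.31 higher (SE 0.071), short of a call at a limma adjusted p = 0.0672. Without wild-type replicate 1 it was 0.36 (limma adjusted p = 0.0319) and called. Without double knockout replicate 1 it was 0.35 and just called, with a limma adjusted p that rounds to 0.05. Without each of the other 8 arrays it was 0.28 to 0.33 and not called (limma adjusted p from 0.0969 to 0.16). Mir680-3 was at 6.84 to 7.27 in wild-type and 6.91 to 7.35 in double knockout livers, with a difference of 0.16 (SE 0.10, limma adjusted p = 0.49). The groups overlapped over most of their range for that copy. All 3 means were thus higher in double knockout livers, and 1 of the 3 rows was called. That the differences of the copies are unequal was not tested.

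On chromosome 6, Mir680-1 lies in RefSeq inside no other gene. The nearest measured genes were Klrc1 on one side and Klri1 on the other, both coding for receptors of natural killer cells. An unmeasured pseudogene, Gm7309, lies between Klrc1 and Mir680-1. The wild-type mean of Klrc1 was 5.14 ± 0.14 and its double knockout mean 5.22 ± 0.14, and those of Klri1 were 4.72 ± 0.13 and 4.64 ± 0.12 (SD over 5 arrays). Their differences were 0.084 (limma adjusted p = 0.687) and -0.077 (limma adjusted p = 0.688), and both genes lay below the olfactory 95th percentile. Among T and natural killer cell markers 7 of 9 measured had higher means and 0 were called, beside 0.884% of all rows tested. The mean of that list ran from 5.92 to 6.03 in wild-type and from 5.99 to 6.21 in double knockout arrays.

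Liver tissue holds several cell types, and fewer cells of a type and less RNA per cell cannot be told apart in it. All 13 Kupffer cell and macrophage markers had higher means in double knockout livers. Of these 2 were called, where 0.332% of all rows tested were called higher. Their list mean ran from 8.86 to 9.18 in wild-type and from 9.10 to 9.44 in double knockout arrays, so the ranges overlapped. The direction was that of Mir680-1, and the part of these cells in the Mir680-1 difference was not tested. Hepatocyte markers, 8 genes at levels from 11.54 to 14.19, had list means of 13.29 to 13.38 in wild-type and 13.31 to 13.34 in double knockout arrays.

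**Figure D3:**
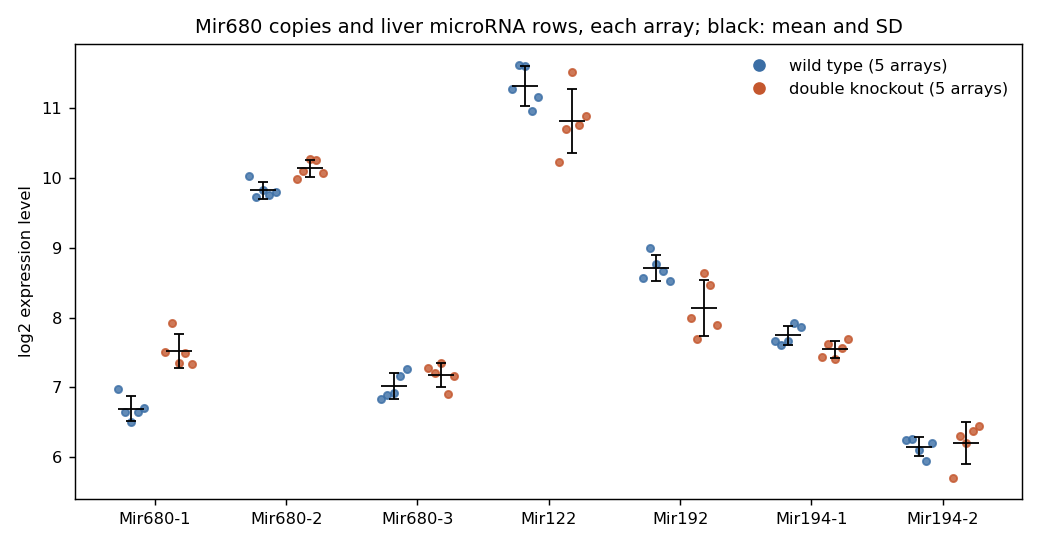
log2 expression level (vertical axis) of the Mir680 copies and of Mir122, Mir192, Mir194-1 and Mir194-2 in each of 5 wild-type and 5 double knockout arrays (points), with the mean and SD of each group in black. The groups lie apart for Mir680-1 (6.51 to 6.98 against 7.33 to 7.92) and overlap in the other 6 rows.

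Mir122 and Mir192 had lower means in double knockout livers, and neither passed the test. Mir122 was at 11.27, 11.62, 11.60, 10.96 and 11.15 in wild-type replicates 1 to 5 and at 10.22, 10.70, 11.51, 10.76 and 10.88 in double knockout replicates 1 to 5. Only double knockout replicate 3 lay inside the wild-type range, and the other 4 double knockout arrays lay below it. The difference was -0.51 (SE 0.20), or 0.704-fold (limma adjusted p = 0.255). Mir192 was at 8.56, 9.00, 8.77, 8.67 and 8.53 in wild-type and 7.99, 7.70, 8.64, 8.46 and 7.90 in double knockout replicates. Double knockout replicate 3 was again the highest of its group and the 1 array of it inside the wild-type range. The difference was -0.57 (SE 0.16), the lowest of all members (limma adjusted p = 0.132). Without double knockout replicate 3 the differences were -0.68 for Mir122 (limma adjusted p = 0.0949) and -0.69 for Mir192 (limma adjusted p = 0.0607). Leaving out the highest double knockout array makes a fall larger by construction. Over all 10 arrays left out in turn, Mir122 ran from -0.68 to -0.36, with limma adjusted p up to 0.432. Mir192 ran from -0.69 to -0.46, with limma adjusted p up to 0.258.

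The cluster partner of Mir192 had its own values. Mir194-2, which lies beside Mir192 on the same strand, was at 5.94 to 6.26 in wild-type and 5.70 to 6.45 in double knockout livers. Its difference was 0.059 (SE 0.12, limma adjusted p = 0.884), and its level was below the olfactory 95th percentile. Mir194-1, on another chromosome with the same miR-194-5p, had a wild-type mean of 7.75 ± 0.14 and a double knockout mean of 7.55 ± 0.12 (SD over 5 arrays). Its difference was -0.20 (SE 0.075, limma adjusted p = 0.236). Whether Mir192 and Mir194-2 differ in their response was not tested. Other microRNA genes known from hepatocytes were below 6.0, among them Mir148a at 4.07, Mir101b at 4.39 and Mir802 at 4.55. Their differences had mixed signs, with 0.02 for Mir148a, 0.022 for Mir30a, and 0.055 and 0.17 for the 2 rows of Mir378a. Mir101b had -0.054, Mir33 -0.13 and Mir802 -0.15. Among the let-7 family, regulators of growth and maturation, Mirlet7a-1 was the 1 row of 13 at 6.0 or more. It stood at 6.47 with a difference of -0.053 (SE 0.048). Below the threshold Mirlet7c-2 had -0.60 (SE 0.17, limma adjusted p = 0.13) at a mean of 5.42.

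Genes known from other cell types gave few members. Mir143, of stellate and muscle-type cells, had a difference of 0.077, and Mir200a, of epithelia such as bile ducts, -0.031. Mir142 and Mir150, of blood cells, had means of 5.58 and 5.93, and the red cell genes Mir451a and Mir144 had 4.32 and 3.58, all under the threshold. Pancreas acinar markers differed widely between arrays, with list means of 9.68 and 10.73 in wild-type replicates 4 and 5 and 8.53 and 8.74 in double knockout replicates 1 and 2. The other 6 arrays lay between 6.04 and 6.72. The pancreas genes Mir216a and Mir217 had means of 4.71 and 4.44. Mir216a was highest in wild-type replicate 4, at 5.09, and lay at 4.76, 4.66 and 4.65 in the other 3 marker-rich arrays, inside the range of the rest. Mir375, known from pancreatic islets, was lowest in wild-type replicate 4, at 7.34, and lay at 7.45 to 7.83 in the other 9 arrays. The brain gene Mir124a-2 was a member, at 7.32 in wild-type replicate 4 and 6.44 to 6.82 elsewhere.

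The lowest differences after Mir192 and Mir122 belonged to Mir5124a, Mir18, Mir693 and Mir365-2, and none was called. Mir5124a averaged 7.69 ± 0.17 over the wild-type and 7.25 ± 0.32 over the double knockout arrays (SD over 5), with -0.43 (SE 0.14, limma adjusted p = 0.165). Mir18, of the Mir17 to Mir92a cluster known from cell proliferation, had -0.39 (SE 0.17, limma adjusted p = 0.303). Mir693 had -0.32 (SE 0.12) and Mir365-2 -0.29 (SE 0.24), with limma adjusted p of 0.215 and 0.635. In 5 of these 6 rows, all but Mir18, double knockout replicate 3 was the highest double knockout array. The rows were chosen by their differences and that array was not named beforehand, so this is a description. For Mir365-2 double knockout replicate 3 stood at 7.18, above the wild-type maximum of 7.01. The other 4 double knockout arrays stood at 5.76 to 6.17. Without the 4 arrays richest in pancreas markers its difference was 0.094, the opposite sign. Leaving out single arrays moved it from -0.16, without double knockout replicate 1, to -0.52, without double knockout replicate 3, and it was -0.18 without wild-type replicate 5.

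Besides the Mir680 copies, the highest differences belonged to Mir669a-3, Mir1970, Mir5103 and Mir339. Mir669a-3, from a large microRNA cluster inside Sfmbt2, had 0.32 (SE 0.15, limma adjusted p = 0.334). Mir1970 had 0.29 (SE 0.12, limma adjusted p = 0.259), Mir5103 0.26 (SE 0.075, limma adjusted p = 0.135) and Mir339 0.25 (SE 0.067, limma adjusted p = 0.11). In each of these 4 rows the groups overlapped. Mir301b, named after its values were seen, was the second row whose groups did not overlap. It was at 6.52, 6.35, 6.33, 6.48 and 6.29 in wild-type and 6.74, 6.60, 6.72, 6.54 and 6.57 in double knockout replicates. Double knockout livers were 0.24 higher (SE 0.059), with a limma adjusted p = 0.0848. Its mean of 6.51 was below the olfactory 95th percentile.

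**Figure D4:**
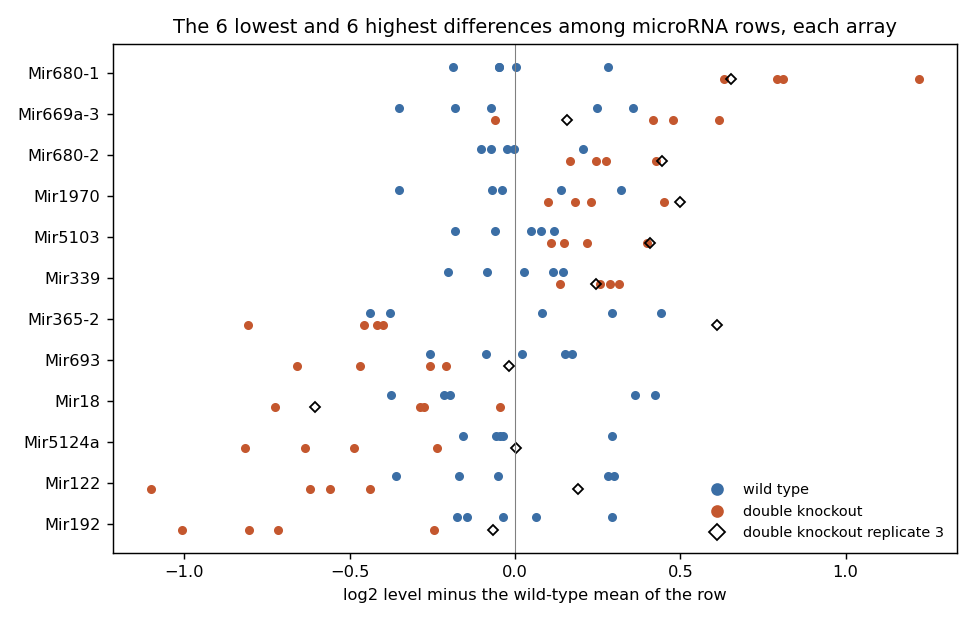
log2 level minus the row's wild-type mean (horizontal axis) in each array, for the 6 members with the lowest and the 6 with the highest differences (rows). Diamonds mark double knockout replicate 3, which is the highest double knockout array in 5 of the 6 lowest rows; Mir680-1 is the 1 row of the 12 whose groups do not overlap.

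Of the 10 members with the highest deposited levels 0 were called, beside 1.24% of tested rows at 6.0 or more. With 10 rows that count cannot be told from that share. Mir5099, Mir449b, Mir692-1 and Mir505 had means of 13.72, 13.43, 13.01 and 12.21 and differences of 0.068, -0.041, 0.02 and -0.045. Their SDs within groups were 0.04 to 0.11. Mir5125, Mir1195 and Mir5135 had means of 11.16, 10.16 and 10.15 and differences from -0.04 to 0.021. Mir466h, at 10.05, had 0.13 (SE 0.048, limma adjusted p = 0.225). The other 2 of the 10 highest were Mir122 and Mir680-2. What RNA gives the signal of these rows cannot be read from the table.

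The widest spread among arrays belonged to Mir1933, named after its values were seen. It was at 9.21, 9.72, 8.23, 9.43 and 8.18 in wild-type and 9.68, 8.76, 7.94, 9.21 and 8.75 in double knockout replicates. Both groups spanned more than a whole log2 unit, and their difference was -0.083 (SE 0.35). Mir1933 lies in Ugp2, which makes UDP-glucose for glycogen. Ugp2 fell by 0.36 on the log2 scale, from 10.93 ± 0.16 to 10.57 ± 0.06 (SD over 5 arrays, limma adjusted p = 0.041), with groups that did not overlap. The spread of Mir1933 within groups was thus not seen in its host. Of all rows tested, 0.553% were called lower and 2.15% had groups apart with double knockout lower.

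Hosts were compared with their microRNA rows by difference. Of the 147 members 102 lay within another RefSeq gene: 66 had a host on the same strand, 7 lay on the opposite strand of their host alone, and for 29 the relative strand could not be read. The other 45 lay in no other gene. A same-strand host was measured for 61 members (57 hosts), with differences from -0.45 to 0.21. Of these hosts 1 was called, Ugp2, beside 0.884% of all rows tested and 1.24% of those at 6.0 or more. A count of 1 is too small to be told from those shares. Across the 61 pairs Spearman's rho of member and host difference was 0.24 and Pearson's r 0.23, a description over pairs that share the 10 arrays and in part a host.

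Single rows are given here beside their hosts, and rows of 1 host or 1 seed beside each other. Whether they differ from each other was not tested. Mir15a, Mir16-1, Mir107 and Mir103-2 were not named by a rule fixed beforehand. Mir15a and Mir16-1 share the seed of miR-15a-5p and miR-16-5p and lie in Dleu2, a long noncoding RNA. Dleu2 averaged 8.19 ± 0.18 over wild-type and 7.74 ± 0.22 over double knockout arrays (SD over 5), or -0.45, without a call (limma adjusted p = 0.0848), while Mir15a had -0.16 (SE 0.10) and Mir16-1 0.062 (SE 0.10). Mir693 lies in Xpo5, the export factor of microRNA hairpins, which had a difference of -0.011 (limma adjusted p = 0.939) beside -0.32 for Mir693. Mir5124a lies in Gcnt2, a glycosyltransferase gene, which had -0.13 (limma adjusted p = 0.266) beside -0.43. Mir107, whose seed is that of miR-103-3p, had -0.078 and its host Pank1, a kinase of coenzyme A synthesis, -0.21 (limma adjusted p = 0.0999). Mir103-2 had 0.038. Neither member of that seed pair was called.

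**Figure D5:**
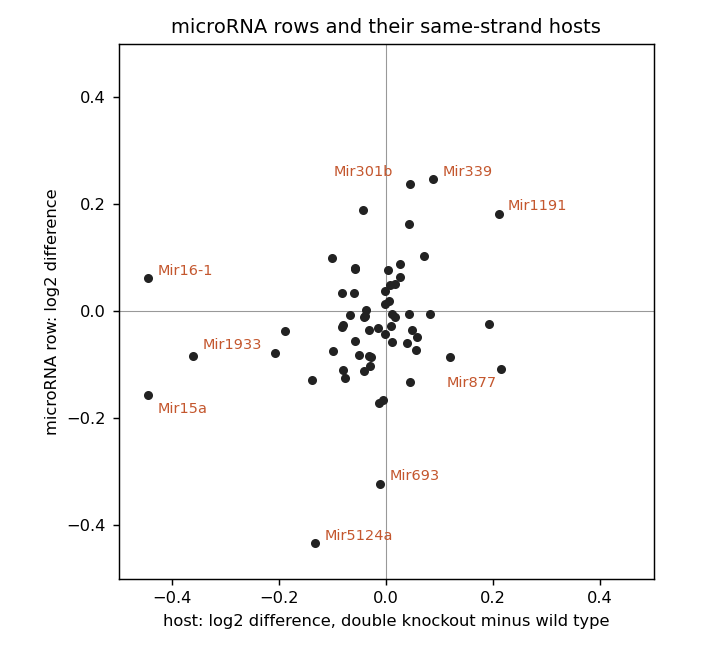
log2 difference, double knockout minus wild type, of the same-strand host (horizontal axis) and of the microRNA row (vertical axis) for 61 members, 1 point each. Host differences run from -0.45 to 0.21, and Mir5124a (-0.43) and Mir693 (-0.32) stand lowest beside hosts at -0.13 and -0.011.

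Members from 1 cluster, here rows with gaps of at most 100 kb, had mixed signs. The 8 rows within Sfmbt2 on chromosome 2 had differences from -0.11 to 0.32, 5 of them positive. On chromosome 12 the 5 rows from Mir673 to Mir1188 had differences from -0.11 to 0.058, and the 6 rows from Mir758 to Mir668 from -0.13 to 0.04. The median differences of these 3 clusters were 0.067, -0.005 and -0.05. Mir449b and Mir449a, neighbours on chromosome 13, had -0.041 and 0.078, and Mir181d and Mir181c, on chromosome 8 with 1 seed, had -0.015 and 0.024.

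The genes that make and use microRNAs were read from a list of 39, of which 34 had a row with 1 symbol. In double knockout livers 14 had higher and 20 lower means. In limma 0 were called, beside 0.884% of all rows tested. At an unadjusted limma p under 0.05, 4 of the 34 were higher and 0 lower, where 7.52% and 7.6% of all rows tested passed. These counts are too small to be told from those shares. The median difference was -0.01. Lowest in p were Srrt, which links capped RNA to Drosha, with 0.21 (limma adjusted p = 0.0887), and the chaperone Hsp90aa1, which helps load Argonaute, with 0.30 (limma adjusted p = 0.124). Next came Ran, the export GTPase used by Xpo5, with 0.25 (limma adjusted p = 0.133), Pnpt1, an RNA-degrading enzyme, with 0.16 (limma adjusted p = 0.257), and the RNA-binding protein Hnrnpa2b1 with 0.085 (limma adjusted p = 0.408). The helicase Ddx5, a partner of Drosha, had -0.11 (limma adjusted p = 0.417). The core enzymes had small differences: 0.029 for Drosha, 0.065 for Dicer1 and -0.014 for Ago2.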

How the data were processed

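The authors deposited log2 levels, 1 row per probe set. The submitters' processing notes name Affymetrix Expression Console, while its version, summarisation and normalization were not found in the labels or the table. Labelled cDNA came from 250 ng of total RNA, per the labels' protocols. Array medians were 6.43 to 6.46 and correlations between arrays 0.989 to 0.995; 0 pairs of arrays were identical. The Macroh2a1 row was lower in all 5 double knockout arrays (9.02 to 9.18, against 9.51 to 9.66), and Macroh2a2 had -0.20 (limma adjusted p = 0.514). The number of arrays limits the precision. The labels do not say that each sample is a separate animal; if not, p-values measure technical spread.

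The 25335 rows with a gene symbol (platform annotation) were fitted in limma 3.58.1 under R 4.3.3 (lmFit, eBayes, group as the only term, two-sided, Benjamini-Hochberg over all rows), with 8 residual and 3.96 prior degrees of freedom. On simulated data for this comparison over 25335 rows, 44.8% of 67 changes of 0.3, 92.5% of 67 of 0.5 and 98.5% of 66 of 1 were called. The simulation drew independent normal noise at each row's own SD and placed the changes on random rows. It thus gives no rate for rows of wider spread, such as Mir122. A host or listed gene was read from its row of highest mean. Hosts, neighbours and sequences came from RefSeq tables of GRCm38.p6, matched by gene identifier. Named were the Mir680 copies, Mir122 and Mir192, called members, the 6 lowest and 6 highest differences, the 10 highest levels and the 3 rows on either side of the threshold. Other names came from fixed lists, hosts and neighbours, or are said to be chosen after their values were seen. Members and lists were chosen with earlier results of these data known. Alternatives varied normalization, prior, array weights, filters, rows tested, thresholds, a replicate block and the arrays used.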

Additional observations from a re-analysis of the deposited data

Results flagged for a closer look

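In 5 of the 52 groups of 5 arrays examined for the named rows, the highest or lowest array stood apart from the rest, with a gap to its neighbour above 0.71 of the group's range; chance gives about 1 in 20. For Mir5124a wild-type replicate 4 was at 7.98 and the others at 7.53 to 7.65 (0.742 of the range). For Mir365-2 double knockout replicate 3 was at 7.18 and the others at 5.76 to 6.17 (0.712). For Mir5099 double knockout replicate 5 was at 13.59 and the others at 13.78 to 13.80 (0.923). For Mir449b wild-type replicate 2 was at 13.53 and the others at 13.42 to 13.44 (0.731). For Mir1195 double knockout replicate 3 was at 10.07 and the others at 10.19 to 10.20 (0.868).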

How the results depend on the processing

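Of 273 differences of single rows recomputed under an alternative, 268 kept their direction and their side of the threshold. They came from 13 rows: Mir680-3 and the members with the 6 lowest and 6 highest differences. Most of these rows were chosen by those differences, and only Mir680-1 was called at the outset. The count is thus a description and no measure of robustness. Mir680-1 was the 1 member called under the 8 alternatives of scaling, prior, array weights, filter and rows tested, and also at an adjusted p threshold of 0.01. At a threshold of 0.10, 3 members were called (Mir680-1, Mir680-2, Mir301b). Without single arrays, 1 to 2 members were called higher and 0 lower, the median difference ran from -0.016 to -0.0019, and Mir680-1 had 0.72 to 0.89 and kept its call. With both arrays numbered 1 left out, added after earlier results were known, 3 were called higher (Mir680-1, Mir680-2, Mir101c), Mir680-2 with 0.40. Without the 4 arrays richest in pancreas markers, likewise added, 0 were called, Mir680-1 had 0.67 and lost its call, Mir365-2 turned to 0.094, and 68 of all rows were called, with fewer arrays in the fit; the cause was not tested. Deviations of same-numbered arrays correlated at -0.477 to 0.131. Differently numbered arrays were not compared, so this does not settle whether the replicate numbers pair the arrays. With the replicate block Mir680-1 had 0.82 and stayed called, as the 1 member, and Mir680-2 had 0.31 (limma adjusted p = 0.174). In that fit 76 of all rows were called instead of 224. A level threshold of 5.5 or 6.5, or the olfactory 95th percentile, gave 190, 120 and 117 members, with 1 called each time. Signal over background was read from olfactory receptor rows alone, since no detection calls were used.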
